A study of Mus musculus with 2 samples.

Results

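The mitochondrially encoded genes are the RNAs transcribed from mitochondrial DNA, and they were taken as every gene name that starts with mt- in the count tables of 2 mouse ovary sections. The RefSeq table lists 37 such genes, namely 2 ribosomal RNAs (rRNAs), 22 transfer RNAs (tRNAs) and 13 protein-coding genes. Of the 22204 gene names in either table, 21 were members, with 19 in the young and 18 in the old table. At least 20 counts in 1 section were found for 10 of the 21, and the other 11 had fewer. The sections came from C57BL6/J females and were read by Slide-seq, which captures RNA from a tissue section on barcoded beads of known position. The labels give 1 section of an ovary at 2 months (young, replicate 3) and 1 at about 14 months (old, replicate 1). No transgene, deletion or treatment is named for either. The protocol in the labels describes 4 cryosections, each 10 µm thick, from 2 females of each age, picked for visible oocytes, so the amount of follicle shown depends on that choice.

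Mitochondrial DNA is transcribed on both strands as long precursors from which rRNAs, tRNAs and messenger RNAs are cut out. The rRNAs form the mitochondrial ribosome, and the messenger RNAs encode core subunits of respiratory complexes I, III, IV and V, whose other subunits are nuclear-encoded, as are all subunits of complex II. In the ovary, mitochondria also hold the cholesterol side-chain cleavage reaction with which theca, luteal and interstitial cells begin steroid synthesis, and oocytes carry very large numbers of mitochondria.

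The young section gave 5158314 counts over 21403 beads (median 153 per bead). The old one gave 2348768 counts over 10267 beads (median 125). The libraries shared 0 bead barcodes. Marker levels differed between the sections, given in counts scaled to a common section total (CPM). The sum of the 20 oocyte markers was 3334 CPM in the young and 305 CPM in the old section, and that of the granulosa markers 9846 and 2378 CPM. The luteal markers summed to 3165 and 4697 CPM, and the periovulatory markers to 29.9 and 1611 CPM. The nuclear noncoding RNA Malat1 stood at 26527 and 21215 CPM, and Neat1 at 517 and 2655 CPM. The part that these differences have in the values of the mitochondrial genes was not tested, beyond the comparisons within regions given further on. Each age had 1 library, so no test between ages was made, and all 95% intervals cover counting error only. In sums over a section, fewer cells of a type and less RNA per cell cannot be told apart.

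Mitochondrial RNA took 1.79% of all counts in the young section (92401 counts, Clopper-Pearson 95% interval 1.78 to 1.80%) and 1.37% in the old (32087 counts, 1.35 to 1.38%). The old/young ratio was 0.763 (exact conditional binomial interval 0.753 to 0.772). Taken as sums, the difference lay in the messenger RNAs, though single members went otherwise. The messenger RNA mt-Nd2 had a ratio of 0.995, and the rRNA mt-Rnr1 one of 0.756. Protein-coding members summed to 10637 CPM in the young and 6041 CPM in the old section, a ratio of 0.568 (0.557 to 0.579), whereas the 2 rRNAs summed to 7268 and 7614 CPM, a ratio of 1.05 (1.03 to 1.07). There were thus 0.683 rRNA counts per protein-coding count in the young and 1.26 in the other section. Mitochondrial RNA was seen on 81.3% of young and 73.3% of old beads. After thinning each bead to 100 counts, which left out 7867 young and 4515 old beads with fewer, the shares were 78.6% and 70.9%.

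The tables did not cover mitochondrial DNA evenly. A stretch from mt-Co2 to mt-Nd4l (chromosome MT, positions 7013 to 10173, GRCm38.p6) holds 6 protein-coding genes that together had 4 young and 2 old counts. Its members with a row were mt-Co3, a core subunit of complex IV, with 3 young counts and 1 old, mt-Atp6, a subunit of ATP synthase (complex V), with 1 young count, and mt-Nd3 of complex I with 1 old count. The complex IV gene mt-Co2, the ATP synthase gene mt-Atp8 and the complex I gene mt-Nd4l had no row in either table. RefSeq lists pseudogenes on chromosome 1, Gm10222 (24612404 to 24612700) and Gm10925 (24613971 to 24614651), whose lengths of 297 and 681 bases equal those of mt-Nd4l and mt-Atp6. The pair spans 2248 bases there against 2247 bases in mitochondrial DNA, and Gm10925 carries the synonym mt-Atp6. Neither pseudogene had a row. How reads that match both places were counted is not given in the sources used here, so the levels of these 6 genes are uncertain and nothing is said about them between the ages.

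**Figure D1:**
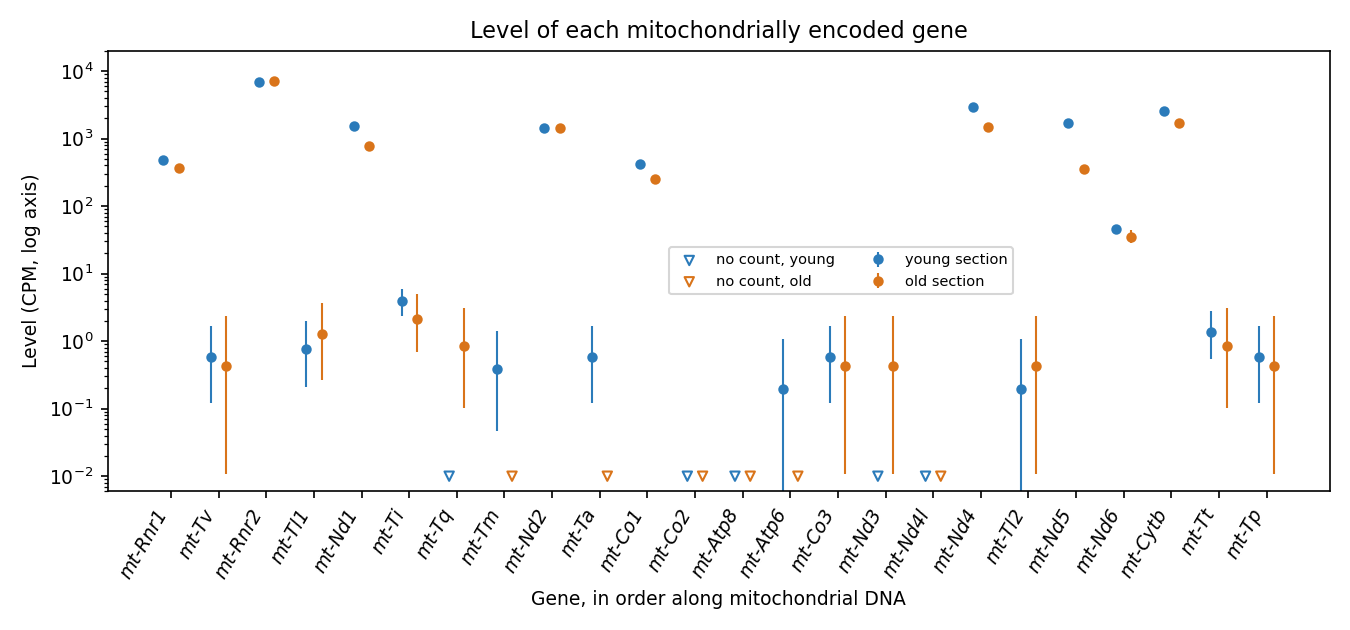
Level of each mitochondrially encoded gene with a row, and of every protein-coding gene, in CPM on a log axis, in the order of the genes along mitochondrial DNA. Points are the whole young or old section, bars are exact Poisson 95% intervals (counting error only), and open triangles mark genes without a count; the 6 genes from mt-Co2 to mt-Nd4l sit below 1 CPM in both sections, while mt-Nd5 shows the widest gap between sections among the abundant genes.

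The large-subunit rRNA mt-Rnr2 (positions 1094 to 2675) was the most abundant member per kilobase of gene, with 4286 CPM per kb in the young and 4580 CPM per kb in the old section. Whether counts rise with gene length was not tested, so levels per kilobase are a description only. The level of mt-Rnr2 was 6780 CPM in the young section and 7246 CPM in the old, a ratio of 1.07 (1.05 to 1.09). The 4 quadrants of a section, split at the median bead position, ranged from 5549 to 10215 CPM in the young and from 6126 to 10032 CPM in the old section. The quadrants overlapped over nearly their whole range. The small-subunit rRNA mt-Rnr1 (positions 70 to 1024), which is cut from the same precursor, gave far fewer counts, at 511 CPM per kb in the young and 386 CPM per kb in the old section. How well the beads capture each kind of RNA was not measured, so counts of different genes, rRNAs and tRNAs included, may not follow their amounts. It stood at 488 CPM in the young and 369 CPM in the old section, a ratio of 0.756 (0.699 to 0.817), with quadrants from 384 to 595 CPM and from 300 to 466 CPM. The rRNAs therefore stood on opposite sides of 1, and both had overlapping quadrants. The sign for the rRNA sum was not stable: giving each bin of the array equal weight turned the ratio to 0.946.

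Complex I, the NADH dehydrogenase at the entry of the respiratory chain, takes 7 subunits from mitochondrial DNA, of which 5 had at least 20 counts. Their summed level was 7618 CPM in the young section and 4069 CPM in the old, a ratio of 0.534 (0.522 to 0.546). The members differed widely among themselves. The proton-pumping membrane subunit mt-Nd5 (positions 11742 to 13565) stood at 1708 CPM (8811 counts) in the young and 350.0 CPM (822 counts) in the old section. Its ratio of 0.205 (0.191 to 0.220) means a level 4.88-fold lower in the old section. The young quadrants gave 1580, 1708, 1778 and 1888 CPM and the old quadrants 290.3, 334, 348 and 407 CPM, so even the highest old quadrant lay far below the lowest young one. Over 13 alternative settings the mt-Nd5 ratio ranged from 0.188 to 0.212.

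The neighbouring membrane subunit mt-Nd4 (positions 10167 to 11544) was the most abundant complex I transcript per kilobase in the young section, with 2107 CPM per kb, and stood at 1069 CPM per kb in the old. Its level was 2904 CPM in the young and 1473 CPM in the old section, a ratio of 0.507 (0.489 to 0.526). The subunit mt-Nd1 (positions 2751 to 3707), which takes part in the quinone-binding site, had nearly the same ratio, 0.512 (0.486 to 0.539), from 1522 and 779 CPM. For both genes every old quadrant lay below every young quadrant: mt-Nd4 reached at most 1752 CPM in the old and at least 2587 CPM in the young quadrants, and mt-Nd1 at most 995 and at least 1381 CPM.

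The complex I subunit mt-Nd2 (positions 3914 to 4951) showed no such gap. Its level was 1437 CPM in the young and 1431 CPM in the old section, a ratio of 0.995 (0.955 to 1.04), and its quadrants overlapped, from 1222 to 1685 CPM and from 1201 to 1997 CPM. On a scale per kilobase it came behind mt-Nd4 and mt-Nd1 in the young section (1385 CPM per kb) and ahead of both in the old (1379 CPM per kb). In CPM it stayed behind mt-Nd4 in the old section (1431 against 1473 CPM), so that order depended on the division by gene length. The last complex I member, mt-Nd6 (positions 13552 to 14070), is the only protein-coding gene read from the light strand. It stood at 46.5 CPM (240 counts) in the young and 35.3 CPM (83 counts) in the old section, a ratio of 0.760 (0.584 to 0.979), with overlapping quadrants. It overlaps mt-Nd5 by 14 bases on the other strand, and since the use of strand in counting is not given in the sources used here, reads from this antisense pair cannot be told apart with certainty.

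Complex III takes 1 subunit from mitochondrial DNA, cytochrome b (mt-Cytb, positions 14145 to 15288), which stood at 2604 CPM in the young and 1715 CPM in the old section. Its ratio was 0.659 (0.636 to 0.683), and its young quadrants (2402 to 2799 CPM) all lay above its old ones (1546 to 1938 CPM). Per kilobase it was the most abundant messenger RNA of both sections, at 2276 and 1499 CPM per kb. In CPM mt-Nd4 was the higher of the pair in the young section, at 2904 CPM. Complex IV, cytochrome c oxidase, rested almost wholly on its catalytic subunit mt-Co1 (positions 5328 to 6872), with 414 CPM in the young and 256 CPM in the old section. The mt-Co1 ratio was 0.618 (0.564 to 0.677), and its old quadrants (184 to 362 CPM) lay below its young ones (397 to 461 CPM), the nearest of them by a small margin. Complex V had 1 count in all, so no ratio was formed.

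The tRNAs gave 43 young and 15 old counts, with a ratio of 0.766 (0.395 to 1.41) whose interval spans 1. The most frequent was the isoleucine tRNA mt-Ti, with 20 young and 5 old counts (ratio 0.549, interval 0.161 to 1.51), which shares 2 bases with mt-Nd1. The other 8 tRNA genes with a row (mt-Tv, mt-Tl1, mt-Tq, mt-Tm, mt-Ta, mt-Tl2, mt-Tt and mt-Tp) had at most 7 counts in either section, and 13 tRNA genes had no row. At these counts a difference between the sections was not detectable.

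Of the 10 members that reached 20 counts in 1 section, 6 were at least 1.5-fold lower in the old section (mt-Nd5, mt-Nd4, mt-Nd1, mt-Cytb, mt-Co1 and mt-Ti), against a background of 25.4% of 12586 genes called lower by the same rule. mt-Ti passed the count minimum only through the young section, with 20 young and 5 old counts, and its interval spans 1. Without it 5 of 9 were lower. None of the 10 was 1.5-fold higher, against 22.6% of all genes. The median ratio of the 9 was 0.659, beside 0.988 over all genes tested. In 5 of the 10 (the same list without mt-Ti) all old quadrants lay below all young ones, which held for 18.6% of all genes, and no member had all its old quadrants above. Quadrants are parts of 1 section and not replicates. At a 2-fold limit mt-Nd5 alone was called, and the share of all genes at that limit was not formed. The 1.5-fold call of mt-Cytb was close to its limit and was lost when any 1 of 3 quadrants was left out, with 0.672 and 0.671 without a young and 0.697 without an old quadrant. That of mt-Ti was lost with equal weight per bin (0.924), on beads with at least 200 counts (0.784) and without 1 old quadrant (0.695).

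**Figure D2:**
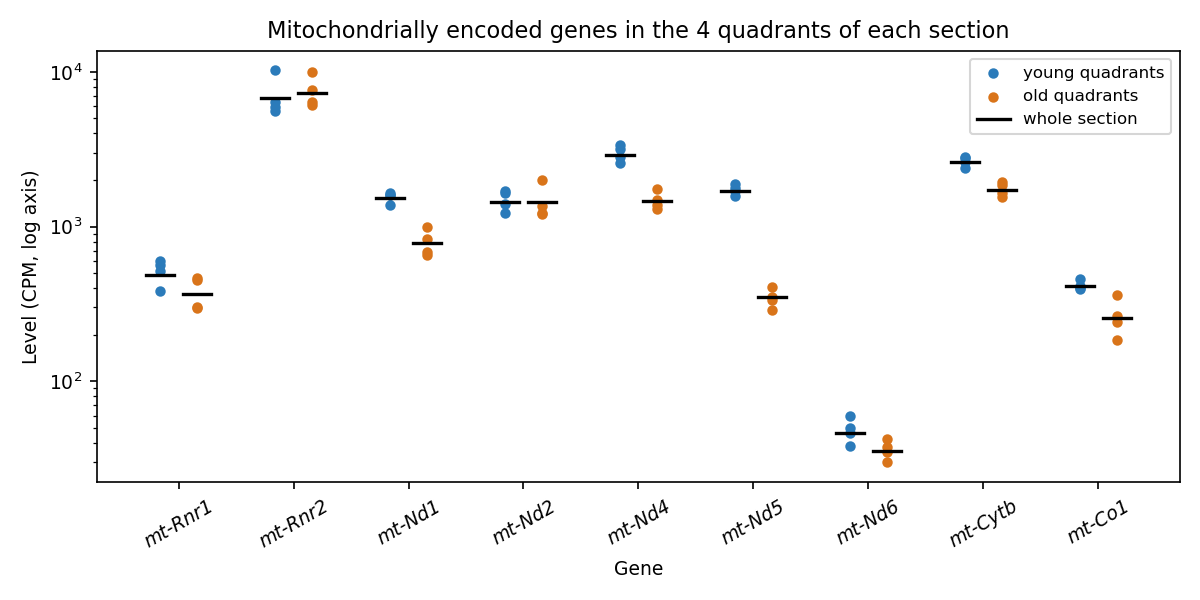
Level of the 9 mitochondrially encoded genes with more than 50 counts in each section, in CPM on a log axis; dots are the 4 quadrants of the young and old section and black lines the whole section. The quadrants separate for mt-Nd1, mt-Nd4, mt-Nd5, mt-Cytb and mt-Co1, most widely for mt-Nd5 (young 1580 to 1888 CPM, old 290.3 to 407 CPM), and overlap for mt-Rnr1, mt-Rnr2, mt-Nd2 and mt-Nd6.

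The make-up of mitochondrial RNA does not depend on the section total and shows the same order. rRNA made up 40.6% of mitochondrial counts in the young section (interval 40.3 to 40.9%) and 55.7% in the old (55.2 to 56.3%). Among protein-coding counts alone, mt-Nd5 took 16.1% (15.8 to 16.4%) in the young and 5.79% (5.41 to 6.19%) in the old section. mt-Nd2 took 13.5% and 23.7%, a difference in the other direction. The shares of mt-Nd4 (27.3% and 24.4%), mt-Nd1 (14.3% and 12.9%), mt-Cytb (24.5% and 28.4%) and mt-Co1 (3.89% and 4.24%) differed far less. By quadrant the mt-Nd5 share ran from 15.4 to 16.4% in the young and from 4.60 to 6.42% in the old section, so it varied little within a section.

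The share of mitochondrial RNA depended on bead depth. In the young section it was 3.27% on beads with 10 to 24 counts and 1.42% on beads with 500 or more, and in the old section 2.42% and 1.09%. Among the abundant members mt-Rnr2 differed most with depth: on beads with under 50 counts it was 3.06-fold (interval 2.91 to 3.21) the level on beads with 500 or more in the young section and 2.70-fold (2.53 to 2.88) in the old. The same ratio was 1.72 (1.51 to 1.96) for young mt-Nd5 and 1.37 (1.23 to 1.53) for young mt-Nd4. The gap between the sections was present at each depth. Within the 6 depth classes the old/young ratio was 0.741 to 0.833 for all mitochondrial RNA, 0.528 to 0.740 for the protein-coding sum and 0.175 to 0.283 for mt-Nd5. The mt-Nd5 share of protein-coding counts stayed between 14.6 and 18.02% in the young classes and between 5.21 and 6.53% in the old ones. The rRNA ratio by contrast lay on both sides of 1, from 0.742 on the shallowest beads to 1.16 on beads with 100 to under 200 counts.

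Position was described in square bins of 5 bead spacings (the median distance between neighbouring beads with counts) that held at least 500 counts, 1348 young and 900 old bins. The share of mitochondrial RNA had a median of 1.87% per young bin (10th to 90th percentile 1.15 to 3.28%) and 1.41% per old bin (0.835 to 2.32%). Moran's I, which is 0 without and near 1 with strong likeness between adjoining bins, was computed after thinning each bin to 500 counts. For all mitochondrial RNA it was 0.325 over young and 0.179 over old bins, and 0.405 and 0.282 after thinning to 1000 counts, which keeps only deeper bins. Among the members with at least 500 counts in each section it was highest for mt-Rnr2 (0.373 young, 0.170 old), followed in the young section by mt-Nd4 (0.194) and mt-Nd5 (0.177), and it was near 0 for mt-Co1 (-0.01 young, 0.0191 old). The old thinned bins held on average 0.173 mt-Nd5 counts against 0.913 in the young, so a pattern of mt-Nd5 is harder to see there. Between rRNA and protein-coding RNA, Pearson's r over thinned bins was -0.05 (1348 young bins) and 0.0943 (900 old bins). Thinned young bins held on average 4.58 rRNA and 5.82 protein-coding counts, and old ones 4.36 and 3.20. Counting error at such low counts weakens r, so whether the 2 kinds of RNA vary together cannot be decided from it. Bins of 1 section share their library and differ in depth, and these values are a description.

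**Figure D3:**
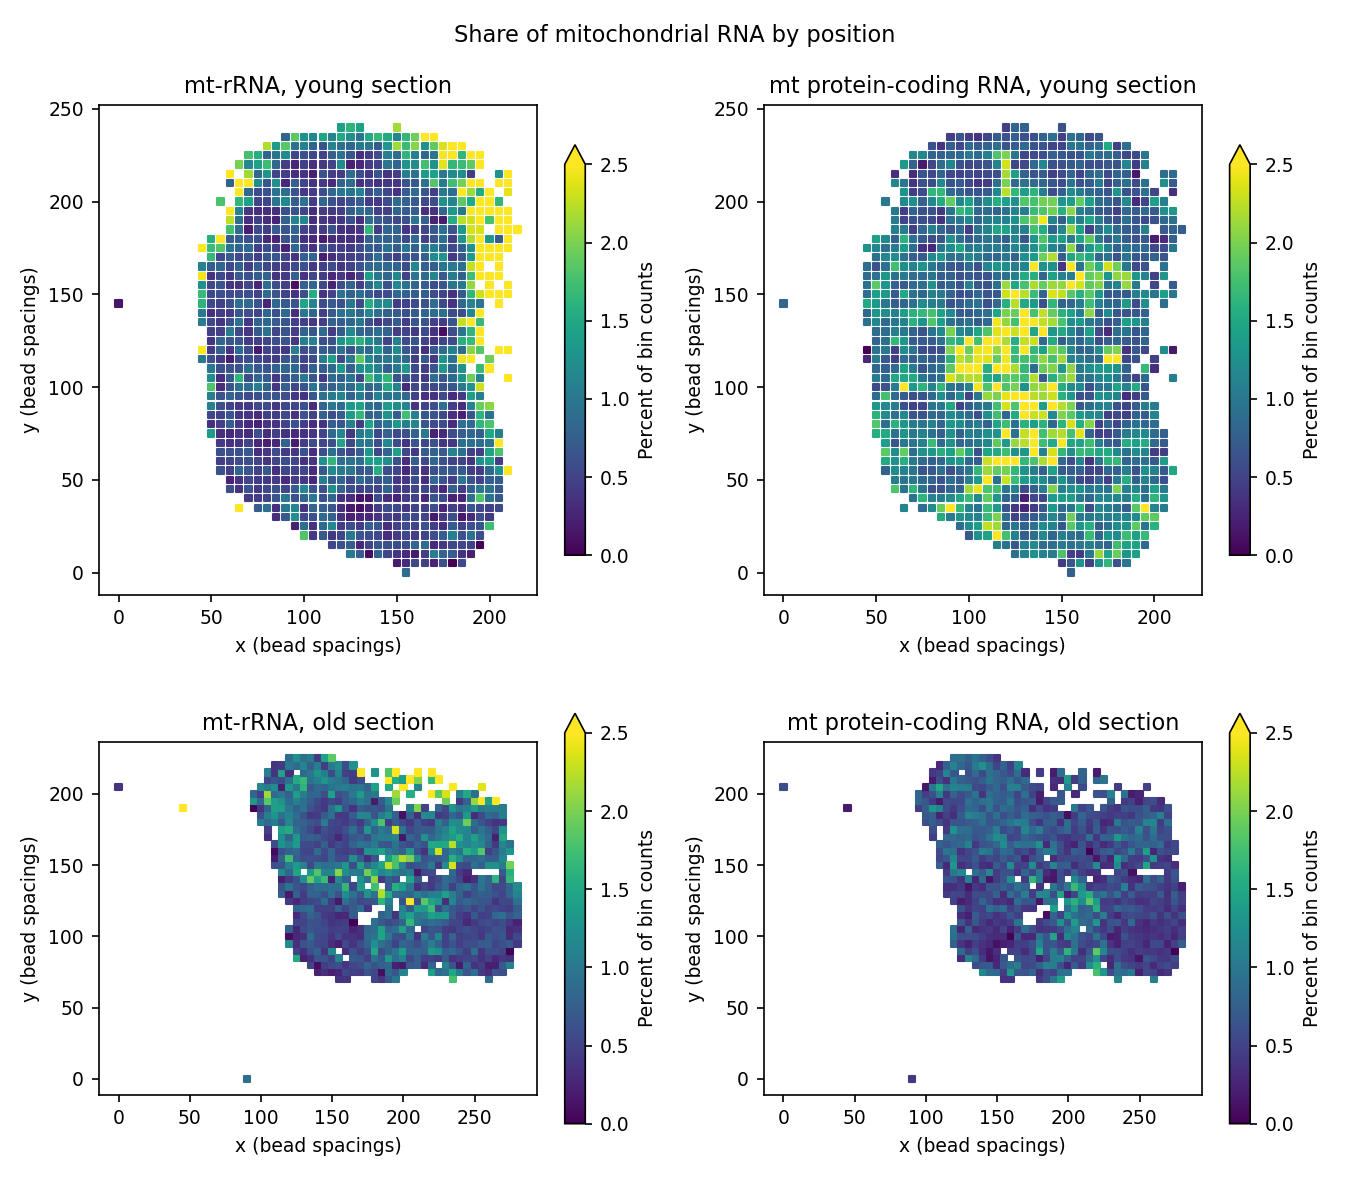
Share of mitochondrial rRNA (left) and mitochondrial protein-coding RNA (right) in percent of the counts of each bin of 5 bead spacings, for the young (top) and old (bottom) section; axes are positions in bead spacings and the colour scale ends at 2.5%. In the young section rRNA is high along the upper and right margin, where the outermost bins hold 1.49%, and protein-coding RNA in the interior, where bins 9 or more layers deep hold 1.53%.

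The young section had a margin rich in rRNA, most of all along its upper and right side and not in every bin. Single bins of the lower margin held as little as 0.179% (x 150, y 5) or as much as 1.81% (x 100, y 20). Over whole quadrants rRNA stood at 10810 CPM for high x and high y, and from 6069 to 6955 CPM in the others. Counting bins inward from the edge of the largest connected piece of tissue, rRNA took 1.49% of counts in the outermost layer (185 bins), 0.910% in the next and 0.577% in layers 5 to 8. The outermost layer against all inner bins gave a ratio of 2.28 (2.21 to 2.36), higher in 4 of 4 quadrants. Of the pair of rRNAs, mt-Rnr2 had a ratio of 2.39 (2.31 to 2.47) and mt-Rnr1 one of 0.946 (0.786 to 1.13). Edge bins were shallow, with a median of 1009 counts against 3860 in layers 5 to 8, and within 5 classes of bin total the rRNA ratio was 1.54. Protein-coding RNA took 0.944% in the outermost layer and 1.53% in layers 9 and deeper, with an edge ratio of 0.881 (0.847 to 0.916). mt-Nd5 had the lowest edge ratio of the abundant members, 0.657 (0.586 to 0.735). The highest among the messenger RNAs was mt-Co1 with 1.21 (1.01 to 1.44), but within these classes it was 1.01. mt-Cytb and mt-Nd6 had 1.02 (0.944 to 1.10) and 1.08 (0.578 to 1.84). rRNA per protein-coding count was 1.58 at the margin and 0.466 in the deepest layer. Malat1 was also higher inward, with 17225 CPM at the margin and 39843 CPM in the deepest layer, and its part in the gradient was not tested.

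In the old section the margin was flatter. rRNA took 0.816% of counts in the outermost layer (170 bins) and 0.697% in layers 5 to 8. It was highest in layers 9 and deeper (71 bins), with 0.990%. The rRNA edge ratio was 1.13 (1.08 to 1.18), higher in 2 of 4 quadrants, and within 5 classes of bin total it turned to 0.923. The protein-coding ratio was 0.957 (0.907 to 1.01). Single genes still differed: mt-Rnr1 was low at the old margin with 0.481 (0.355 to 0.639) and mt-Co1 high with 1.58 (1.26 to 1.96), each in 4 of 4 quadrants. mt-Rnr1 stood at 188 CPM at the margin and 734 CPM in the deepest layer. At a limit of 1.5-fold, 1 of 10 members was higher at the young margin (mt-Rnr2), against 14.3% of all genes, and 2 were lower (mt-Nd5, and mt-Ti with no count there), against 25.8%. With 20 young counts in all, mt-Ti had an interval of 0 to 3.48 at the margin, so its call carries no information. At the old margin 1 of 9 was higher (mt-Co1), against 15.0%, and 1 lower (mt-Rnr1), against 19.5%. None of these counts stands out from its background. The contrast of the margin with the interior was chosen after the maps were seen.

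**Figure D4:**
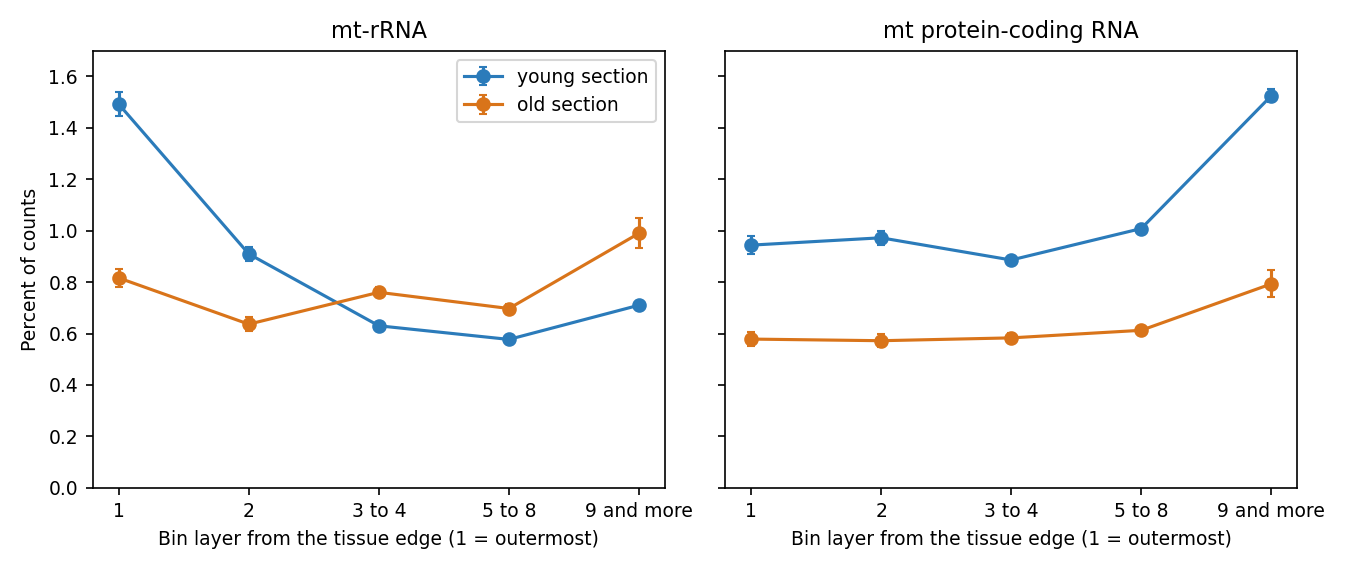
Percent of counts taken by mitochondrial rRNA (left) and mitochondrial protein-coding RNA (right) in layers of bins counted from the tissue edge, for the young and old section, with Clopper-Pearson 95% intervals (counting error only). Young rRNA starts at 1.49% in the outermost layer and young protein-coding RNA ends at 1.53% in the deepest, while the old layers stay within 0.636 to 0.990% and 0.572 to 0.793%.

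Bins were next ranked by the share of a list of nuclear genes, and the top 20% was set against the other bins of that section. Mitochondrial messenger RNAs took a larger share in bins rich in steroid-making genes. In the young section the bins rich in the mitochondrial steroid synthesis genes (Cyp11a1, the side-chain cleavage enzyme, with Star, Fdx1 and Fdxr) held 1.77% protein-coding mitochondrial counts against 0.937% elsewhere, a ratio of 1.89 (1.85 to 1.92), or 1.67 within 5 classes of bin total. rRNA hardly differed there, with a ratio of 1.14 (1.10 to 1.17) and 0.967 within these classes. Of 9 members tested 7 were at least 1.5-fold higher in these bins, against 8.84% of all genes. Within 5 classes of bin total 5 of 9 were, mt-Cytb and mt-Rnr1 falling below the limit at 1.438 and 1.439. No share of all genes was formed within these classes, so that count has no background. The highest was mt-Nd2 with 2.33 (2.22 to 2.45), followed by mt-Nd5 with 2.05 (1.95 to 2.15) and mt-Nd4 with 1.98 (1.91 to 2.05), and the 2 not called were mt-Co1 with 1.38 and mt-Rnr2 with 1.09. The theca list gave a like picture in the young section, with a protein-coding ratio of 1.99 (1.95 to 2.03) and 7 of 9 members called, against 9.52% of all genes. Within classes of bin total 5 were called, again without such a share. Aldh1a1, a retinal dehydrogenase, made up 96.9% of that list's counts, and without it the ratio was 1.252.

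In the old section the same steroid genes marked a smaller excess. Protein-coding mitochondrial RNA took 0.804% of counts in the top 20% and 0.551% elsewhere, a ratio of 1.46 (1.41 to 1.52), and rRNA had 1.02 (0.985 to 1.06). mt-Nd2 was again the highest with 1.97 (1.83 to 2.12), and mt-Nd5 was the other member past 1.5-fold with 1.50 (1.28 to 1.76), so that 2 of 9 were called against 9.18% of all genes. mt-Cytb and mt-Nd4 reached 1.22 and 1.36. The steroid genes themselves summed to 14093 CPM over the whole old section and 5722 CPM over the young. A lower steroid excess in the old section was not tested as a difference between the sections.

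Mitochondrial messenger RNA took a smaller share where follicle genes were rich. In young bins rich in oocyte genes (a list led by Nlrp14) the protein-coding ratio was 0.678 (0.663 to 0.694), while that of rRNA was 0.999 (0.974 to 1.02). Of 9 members 3 were at least 1.5-fold lower there, mt-Nd2 (0.588), mt-Nd4 (0.606) and mt-Rnr1 (0.632), against 18.5% of all genes. None of the 9 passed that limit within 5 classes of bin total, where these 3 stood at 0.675, 0.673 and 0.711. The share of all genes within these classes was not formed. Young granulosa-rich bins gave 0.747 (0.732 to 0.762) for the protein-coding sum and 0.811 for rRNA. These bins were the deeper ones, with a median of 5254 counts against 2709, and within 5 classes of bin total the ratios were 0.870 and 1.01. Old granulosa-rich bins gave 0.865 (0.831 to 0.900) and 0.819. In the old section the lowest values lay in bins rich in periovulatory genes, of which Adamts1, a protease of the ovulating follicle, made up 94.4%. There both kinds of RNA were low, with 0.681 (0.655 to 0.708) for protein-coding RNA and 0.643 (0.621 to 0.666) for rRNA. 5 of 9 members were called lower, against 26.2% of all genes, with mt-Rnr1 lowest at 0.471 (0.394 to 0.560). Within classes of bin total 4 were called lower, without a share of all genes to set beside them. The periovulatory list was not used in the young section, where its bins held 152 counts and the minimum was 200.

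**Figure D5:**
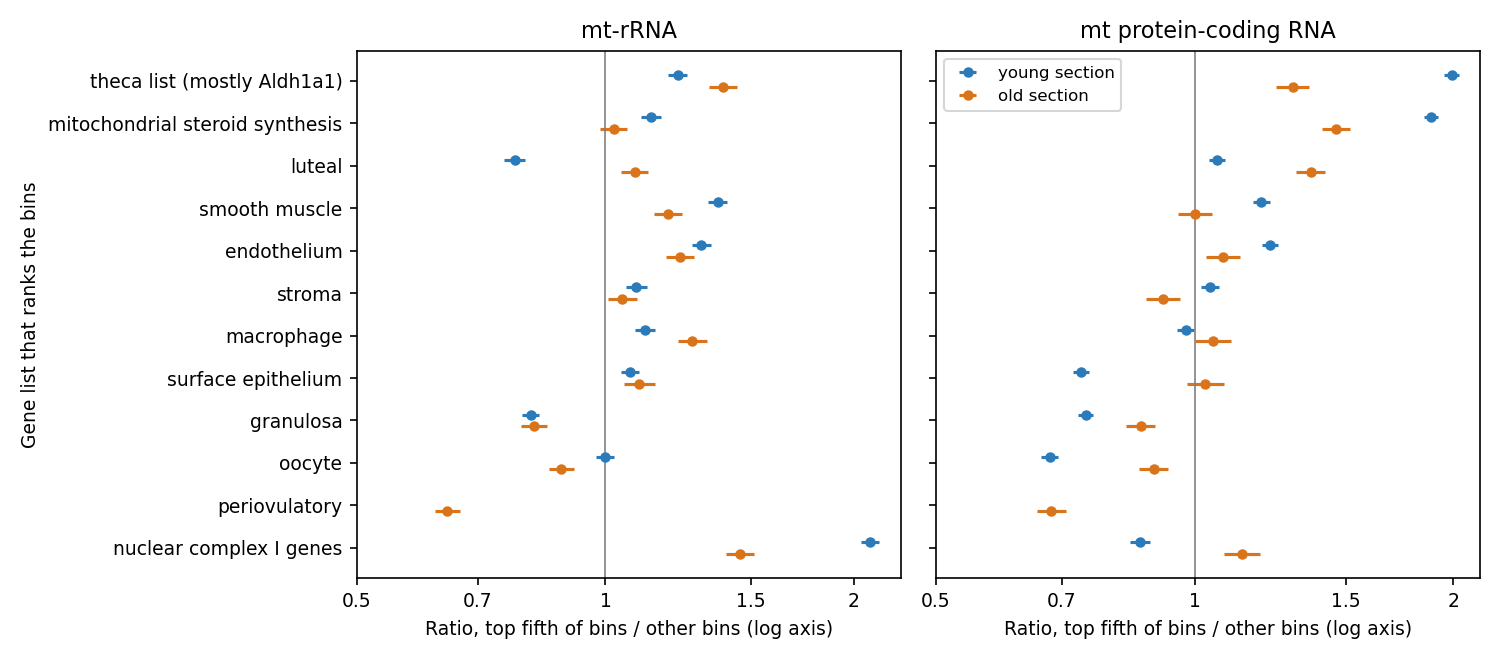
Ratio of mitochondrial rRNA (left) and mitochondrial protein-coding RNA (right) between the 20% of bins richest in a gene list and the other bins of the same section, on a log axis, with counting-error 95% intervals. Young protein-coding RNA reaches 1.99 and 1.89 in bins ranked by the theca and steroid lists and 0.678 in oocyte bins, while the highest young rRNA ratio, 2.09, belongs to bins ranked by nuclear complex I genes.

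The share of mitochondrial RNA was lowest in the bins that held oocytes. A focus was a set of touching bins, each with 10 or more counts of oocyte-list genes and 1% or more of its counts from them. The 12 young foci (61 bins) held 0.981% mitochondrial RNA (0.955 to 1.01%), the ring within 5 spacings 1.68%, and bins beyond 20 spacings 1.95% (1.94 to 1.97%). In the same order rRNA took 0.369%, 0.669% and 0.750% of counts, and protein-coding RNA 0.612%, 1.01% and 1.20%. Focus bins were also the deepest, with a median of 6913 counts against 2741 beyond 20 spacings. The 2 old foci (3 bins) held 0.560% (0.458 to 0.677%), against 1.35% beyond 20 spacings. Within the young foci mt-Nd5 stood at 1026 CPM and mt-Nd4 at 1545 CPM. The 3 old focus bins had a median of 6570 counts, which left too few counts of either gene for a comparison.

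The gap in messenger RNA was also seen between regions of both sections ranked by the same list. Over 11 lists that could be ranked in both sections, the old/young ratio within the top 20% of bins was 0.408 to 0.736 for protein-coding RNA, lowest in theca-list bins and highest in epithelium-list bins. For mt-Nd5 it was 0.128 to 0.284. In granulosa-rich bins, for example, mt-Nd5 stood at 1320 CPM in the young and 317 CPM in the old section, and in stroma-rich bins at 1684 and 318 CPM. mt-Nd2 behaved otherwise, with ratios from 0.658 in theca-list bins to 1.36 in bins ranked by nuclear complex I genes, and so did rRNA, with 0.791 to 1.39. The top 20% for a list is not the same tissue in both sections where the list's level differs, as it did for oocyte and granulosa genes. It also differed for the lists at the ends of the protein-coding range. Over whole sections the theca list summed to 6432 CPM in the young and 806 CPM in the old, and the epithelium list to 106 and 503 CPM.

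Among the nuclear genes with a mean of at least 0.5 counts per thinned bin, the 5 most like the mitochondrial sum over bins were named for each section. Over 1348 young bins and 71 genes the 5 highest Pearson correlations were with Aldh1a1 (0.381), Hsd3b1, which makes progesterone (0.305), Cyp11a1 (0.276), Fdx1 (0.272) and Mgarp, a mitochondrial protein (0.270). Over 900 old bins and 65 genes they were with Hsd3b1 (0.352), the transporter Abcb1b (0.269), Malat1 (0.231), ferritin heavy chain Fth1 (0.143) and Akr1cl (0.108). In the young section the protein-coding sum had its highest values with Aldh1a1 (0.384) and Cyp11a1 (0.357), whereas the rRNA sum had 0.183 with Aldh1a1. These bins share library and depth, and the correlations are weak.

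The nuclear-encoded partners of the same complexes showed a smaller gap or none. The 81 nuclear respiratory chain genes summed to 18872 CPM in the young and 17791 CPM in the old section, a ratio of 0.943 (0.932 to 0.954), against 0.568 for the mitochondrially encoded messenger RNAs. Of the 80 with at least 20 counts, 14 were at least 1.5-fold lower and 6 higher, both less than the shares of all genes given above. By complex the nuclear sum gave 0.871 for complex I beside 0.534 for its mitochondrial members, 1.12 for complex III beside 0.659, and 0.984 for complex IV beside 0.618. The nuclear complex I genes furthest apart were Ndufa7 (0.504) and Ndufv3 (0.522) at the low end and Ndufb10 (1.86) and Ndufa9 (1.67) at the high end. Of the 37 nuclear complex I genes 10 were at least 1.5-fold lower and 2 higher, where 25.4% and 22.6% of all genes were. Their median ratio was 0.862. Cox8a (0.535) and Cox7a2 (0.558) were lowest in complex IV, and Uqcrb (1.81) was highest in complex III. The 4 complex II genes, all nuclear, lay between 0.837 (Sdha) and 0.949 (Sdhd). Nuclear and mitochondrial members of complex I were not richest in the same bins of the young section. In the 20% of young bins richest in nuclear complex I genes, mt-Rnr2 was 2.18-fold higher (2.13 to 2.24), mt-Nd5 had a ratio of 0.629 (0.582 to 0.678) and the protein-coding sum 0.865 (0.842 to 0.888). Those bins had a median of 1851 counts against 3322 in the others.

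The 17 genes of mitochondrial DNA transcription and replication summed to 483 CPM in the young and 645 CPM in the old section, a ratio of 1.33 (1.251 to 1.42), with 6 of 16 higher and 1 lower, where 22.6% and 25.4% of all genes were. Polg, the mitochondrial DNA polymerase, had 2.18 (1.75 to 2.72), Mterf1a 2.20 (1.30 to 3.70) and Primpol, a primase, 0.418 (0.312 to 0.553). The list for processing and stability of mitochondrial RNA had a ratio of 0.728 (0.697 to 0.761), with a median ratio of 1.11. Its 5 of 17 higher and 4 lower are near the shares of all genes (22.6% and 25.4%). Its sum was led by Lrpprc, a stabiliser of mitochondrial messenger RNAs, which stood at 387 CPM in the young and 162 CPM in the old section, a ratio of 0.418 (0.373 to 0.466). Fastkd5, which acts in the cutting of mitochondrial precursors, was at 0.399 (0.181 to 0.791) from 55 and 10 counts, and Supv3l1, a helicase of the mitochondrial RNA degradosome, at 2.13 (1.65 to 2.74). The mitoribosome genes, partners of the rRNAs, summed to a ratio of 0.905 (0.887 to 0.923), with 9 of 76 higher and 19 lower, the latter near the 25.4% of all genes.

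Messenger RNAs of a list of abundant mitochondrial proteins (channels, import subunits, carriers, a cristae protein and citrate synthase) summed to a ratio of 1.01 (0.983 to 1.04). Its members went both ways, with 2 of 12 higher and 3 lower, from Vdac3 at 0.426 to Slc25a3 at 1.93, and the amount of mitochondria was not measured. The mitophagy list had 0.910 (0.874 to 0.947), with 1 of 6 higher and 1 lower, and the biogenesis regulators 0.934 (0.815 to 1.07), with 1 of 6 higher. Mitochondrial stress and protein quality genes summed to 1.38 (1.33 to 1.42), with 5 of 11 higher and 1 lower, beside 22.6% and 25.4% of all genes. The stress transcription factor Atf5 had the largest ratio among them, 7.29 (5.64 to 9.52) from 78 and 259 counts, followed by Atf4 with 3.14 (2.65 to 3.72), and the chaperonin Hspd1 had 1.53 (1.42 to 1.64). Yme1l1, an inner-membrane protease, was at 0.527 (0.466 to 0.594).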

How the data were processed

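The deposited tables hold whole-number counts per gene and bead, and bead positions in unstated units; per the submitters' processing notes the build was mm10. Not given in the sources used here are aligner, annotation, strand setting, treatment of reads with several matches, and whether a count is a molecule or a read. The tables list no bead under 10 counts and no gene without a count. Names starting with mt- were matched to 37 genes of the GRCm38.p6 RefSeq table by symbol or naming convention. Counts were summed per section and scaled to CPM. Ratios carry exact conditional binomial (Clopper-Pearson) and levels exact Poisson 95% intervals. Members reaching 20 counts in 1 section were called at 1.5-fold. Bins span 5 bead spacings with at least 500 counts. Lists were ranked where bins held at least 200 of their counts. Nuclear genes named are, per list, the most abundant and up to 2 with the highest and lowest ratios. The members and lists were chosen with earlier results of these data known. Alternatives were other totals, trimmed-mean scaling, bead minimums, bin sizes and quadrants left out. The ratio, Moran's I and scaling steps were tested on simulated data. Python 3.11.15, numpy 2.4.6, scipy 1.17.1, pandas 2.3.3 and matplotlib 3.10.9 were used.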

Additional observations from a re-analysis of the deposited data

Results flagged for a closer look

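In 6 contrasts of list-rich bins with the other bins, the young and the old section lay on opposite sides of 1, and the difference between the sections was not tested. In luteal-rich bins the ratio for all mitochondrial RNA was 0.946 (young) and 1.21 (old), and for mitochondrial rRNA 0.776 and 1.09. In bins rich in nuclear complex I genes, mitochondrial protein-coding RNA had 0.865 (young) and 1.13 (old). Protein-coding RNA had 1.04 and 0.919 in stroma-rich bins and 0.976 and 1.05 in macrophage-rich bins, and all mitochondrial RNA had 0.864 and 1.07 in epithelium-rich bins. Quadrants agreed in direction in 4 of 4 for young rRNA and 2 of 4 for old rRNA in luteal-rich bins. For young protein-coding RNA in stroma-rich bins 1 of 4 quadrants agreed. That ratio was 0.891 within 5 classes of bin total, so its side of 1 depended on bin depth.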

How the results depend on the processing

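No called ratio changed side of 1 under the alternatives run, but the rRNA ratios near 1 did. With trimmed-mean scaling the old/young ratio was 0.732 for all mitochondrial RNA, 1.01 for rRNA, 0.545 for protein-coding RNA, 0.513 for complex I and 0.632 for complex III. With equal weight per bin these were 0.724, 0.946, 0.548, 0.516 and 0.634. On beads with at least 200 counts all mitochondrial RNA had 0.748 and rRNA 1.02, and without the outermost bin layer (added after seeing the data) rRNA had 1.11. Leaving out each quadrant in turn gave 0.710 to 0.815 for all mitochondrial RNA, 0.963 to 1.19 for rRNA, 0.528 to 0.602 for protein-coding RNA, 0.486 to 0.568 for complex I and 0.626 to 0.697 for complex III. At 2-fold 1 member was called lower in place of 6, without a share of all genes at that limit. Thinning to 1000 counts gave an old Moran's I of 0.282. For protein-coding RNA in list-rich bins, taking the top 10% gave 0.631 (young oocyte), 0.803 (young granulosa), 2.06 (young theca), 2.06 (young steroid) and 0.953 (old granulosa), and the top 33.3% 0.735 (young oocyte), 1.84 (young theca), 1.73 (young steroid), 0.819 (old granulosa), 0.749 (old periovulatory) and 1.34 (old steroid). Bins of 4 spacings gave 0.727 for young granulosa, bins of 8 spacings 1.94 for young theca, 1.79 for young steroid and 1.39 for old steroid, and a denominator without the list 0.764 for young granulosa. Within 5 classes of bin total, added later, the values were 0.749 (young oocyte), 0.870 (young granulosa), 1.77 (young theca), 1.67 (young steroid), 0.922 (old granulosa) and 0.729 (old periovulatory). Without the outermost layer they were 1.94 (young steroid) and 0.644 (old periovulatory), and without Aldh1a1 1.252 (young theca). Oocyte foci of 20 counts and 2% gave 0.628 for protein-coding RNA near young foci against 0.659. For the outermost bins over inner bins, the values within these classes were 1.54 (young rRNA), 0.744 (young protein-coding), 0.923 (old rRNA) and 0.885 (old protein-coding), and on bins with at least 1000 counts 1.98 (young rRNA) and 0.993 (old rRNA). No paired analysis was possible because each age has 1 library and the 2 share no replicate number. The tRNAs and the genes from mt-Co2 to mt-Nd4l had too few counts for a comparison.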

Other observations

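The genes least like mitochondrial rRNA over the young bins, named after their values were seen, were the clone-named gene CT010467.1 (r = -0.33), the nuclear-encoded mitochondrial leucyl-tRNA synthetase gene Lars2 (r = -0.23) and Malat1 (r = -0.22), over 1348 bins that share a library. Malat1 had r = 0.351 with the mitochondrial protein-coding sum over the same bins. In the old section Malat1 had r = 0.195 with rRNA and r = 0.164 with protein-coding RNA over 900 bins.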
